A study of Mus musculus with 16 samples.

Results

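The insulin-like growth factor (IGF) genes described here were Igf1, Igf2, Igf2r, Igfbp2, Igfbp3, Igfbp5, Igfbp6 and Igfbp7. They were chosen by name, as all probes that the platform annotation gives 1 of these symbols. Other genes of the IGF system on the array, such as Igf1r and Igfbp4, are given with the pathway lists below. The chosen genes make up 8 of 16593 named genes and 11 of 25697 probes on the array. Of the 11 probes, 10 passed the detection filter, with at least 1 probe for each of the 8 genes. As processed here, Igf2 and Igfbp2 stood at less than 50% of the control level in mutants, and Igf2r stood level. With no background correction Igfbp2 stood above 50%. No probe of the 8 genes passed the threshold after adjustment over all tested probes.

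IGF1 and IGF2 are secreted ligands that signal through the IGF1 receptor and, in part, the insulin receptor, to the phosphoinositide 3-kinase and Akt pathway that promotes growth and survival. In the mouse Igf2 is expressed from the paternal and Igf2r from the maternal allele in most tissues, and the Igf2r protein, which is also the cation-independent mannose 6-phosphate receptor, takes IGF2 to the lysosome and carries newly made lysosomal enzymes there. The IGF binding proteins hold the ligands outside the cell, prolong their life and limit or steer their access to the receptor. In skin, IGF1 from dermal cells, the hair follicle's dermal papilla among them, acts on the epithelium and supports growth of the hair follicle.

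The study compared RNA of dorsal skin from mice of genotype K14-cre; Gab1fl (7 arrays, called mutant) with RNA labelled as control (9 arrays). Every mouse was 15 days old and of the strain background given as C57/BL6;129Ola mixed, and the labels name no allele for the controls. Gab1 is a docking protein that passes signals from receptor tyrosine kinases on to their downstream pathways. The keratin 14 promoter drives Cre in basal keratinocytes, and the design text speaks of cells sorted for integrin alpha 6 while the arrays are labelled only as dorsal skin.

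The 16 arrays fell into 5 sets of near-identical arrays, 2 mutant and 3 control, with 3 or 4 arrays in each. Arrays of a set correlated at 0.994 to 0.996 over the tested probes, those of different control sets at 0.961 to 0.986 and those of the different mutant sets at 0.935 to 0.936. No label says which arrays share an animal or an extract. Each set was therefore counted as 1 sample, n is 2 mutant and 3 control sets throughout, and p-values measure the spread between these sets. Levels are normalized log2 signal, in which a difference of 1 is a doubling, and the level of a probe can be compared between samples but not with that of another probe. The Gab1 probe stood at 12.69, 12.69 and 12.68 in control sets 1 to 3 and at 11.34 and 11.97 in mutant sets 1 and 2, which is 48.9% of control (adjusted p = 0.239 by limma). The Y-linked gene Eif2s3y stood at 10.41 to 10.74 in the control sets, at 9.14 in mutant set 1 and at 4.78 in mutant set 2, where it was not detected. The labels give no sex, and differences of sex and of genotype between these sets cannot be told apart.

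Promoter windows that hold a GC box, of the 3 genes that stood lower in both mutant sets than in every control set (Igf2, Igfbp2 and Igfbp7), are shown for their sequence composition. RefSeq on GRCm38.p6 gives 4 starts to Igf2 and 2 to Igfbp2, and the array does not say which start a transcript used. Each sequence is the 250 bases before a start, 5′ to 3′ on the gene's own strand. Capitals mark the GC box GGGCGG, the core of the binding site of Sp1-type factors, on either strand.
Igf2 start 3: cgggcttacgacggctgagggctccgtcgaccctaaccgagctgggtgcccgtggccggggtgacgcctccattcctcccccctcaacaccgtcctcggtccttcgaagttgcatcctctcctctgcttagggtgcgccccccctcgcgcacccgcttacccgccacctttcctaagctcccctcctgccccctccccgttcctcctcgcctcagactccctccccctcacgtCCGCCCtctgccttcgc
Igf2 start 4: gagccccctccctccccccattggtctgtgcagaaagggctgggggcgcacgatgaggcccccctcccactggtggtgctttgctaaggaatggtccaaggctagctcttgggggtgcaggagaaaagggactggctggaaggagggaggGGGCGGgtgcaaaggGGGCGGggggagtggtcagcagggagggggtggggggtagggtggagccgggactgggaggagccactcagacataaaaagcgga
Igfbp2 start 1: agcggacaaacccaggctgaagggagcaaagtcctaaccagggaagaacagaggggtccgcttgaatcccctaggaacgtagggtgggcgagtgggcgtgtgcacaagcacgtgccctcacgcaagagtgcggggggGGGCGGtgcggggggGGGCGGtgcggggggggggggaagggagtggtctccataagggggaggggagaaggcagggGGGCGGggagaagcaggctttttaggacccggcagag
Igfbp7 start 1: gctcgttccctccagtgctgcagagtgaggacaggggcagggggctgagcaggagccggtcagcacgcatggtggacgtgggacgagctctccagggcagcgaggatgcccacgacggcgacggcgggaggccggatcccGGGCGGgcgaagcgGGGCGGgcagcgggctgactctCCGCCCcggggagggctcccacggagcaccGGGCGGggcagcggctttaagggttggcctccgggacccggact
The Igf2 windows lie on the minus strand at chr7:142658805-142659054 (start 3) and chr7:142657497-142657746 (start 4), the Igfbp2 window on the plus strand at chr1:72824230-72824479 (start 1), and the Igfbp7 window on the minus strand at chr5:77408046-77408295. These windows hold 68.8%, 66.0%, 67.2% and 74.0% G and C in that order, against a median of 52.4% over the 32851 mouse windows of the same length. As they were shown for holding a GC box, a content above that median is in part built in by the choice. The windows of these 3 genes that are not shown hold no GC box and less G and C, with 50.8% and 47.6% at Igf2 starts 1 and 2 and 56.4% at Igfbp2 start 2. GC boxes number 1 and 2 in the Igf2 windows, 3 in the Igfbp2 window and 4 in the Igfbp7 window, and 32.7% of all windows hold at least 1. Of the 12 windows of the 8 genes, the Igf2r window also holds GC boxes (3), in a gene whose level did not separate the groups. G and C make up 69.2% of the Igf2r window. They make up 73.2% of the Igfbp3 window, which holds no GC box and whose gene overlapped between the groups. The TATA box TATAAA, searched on both strands, occurs in 12.4% of all windows and among the 8 genes in the Igfbp6 window. Igfbp2 and Igfbp5 are neighbours on chromosome 1.

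Among the ligands, Igf2 was lower on every mutant array than on every control array. Its level was 13.92, 13.88 and 14.06 in control sets 1 to 3 and 12.71 and 12.77 in mutant sets 1 and 2. Over single arrays the lowest, median and highest were 13.84, 13.92 and 14.15 in controls and 12.69, 12.73 and 12.81 in mutants. Both mutant sets lay close together, with overlapping arrays. The mean was 12.74 ± 0.05 (SD, n = 2) against 13.96 ± 0.09 (SD, n = 3), a difference of -1.22 with a standard error of 0.11 (95% interval -1.50 to -0.94), or 43.0% of control. The probe was bright, with raw signals of 6843 to 18455. The limma p was 6.29e-05 and the p adjusted over 14504 probes was 0.101, above the threshold of 0.05. The two-sided exact permutation test over the 5 sets gave 0.1, the smallest p that 10 assignments allow. On slides 1 and 2, which carry arrays of the same 5 sets and are not independent, the difference was -1.19 and -1.23 (limma adjusted p of 0.104 and 0.111). With the slide as a block, which enters 10 set averages that are not independent sets, it was -1.21 (adjusted p = 0.000332). In all, 247 of the 10013 tested genes, or 2.47%, had a difference as negative as that of Igf2 or more.

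Igf1, the ligand best known as the mediator of growth hormone, varied as widely among controls as between groups. Its level was 8.31, 9.02 and 9.67 in control sets 1 to 3 and 8.82 and 8.35 in mutant sets 1 and 2. Control set 1 was the lowest of all 5 sets and overlapped mutant set 2 in its arrays, followed by mutant set 1, control set 2 and control set 3. The difference was -0.42 with a standard error of 0.43 (95% interval -1.48 to 0.65; adjusted p = 0.764 by limma). It depended on single sets, at -0.08 without control set 3 and -0.76 without control set 1. A difference of the size found for Igf2 lies inside this interval.

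**Figure D1:**
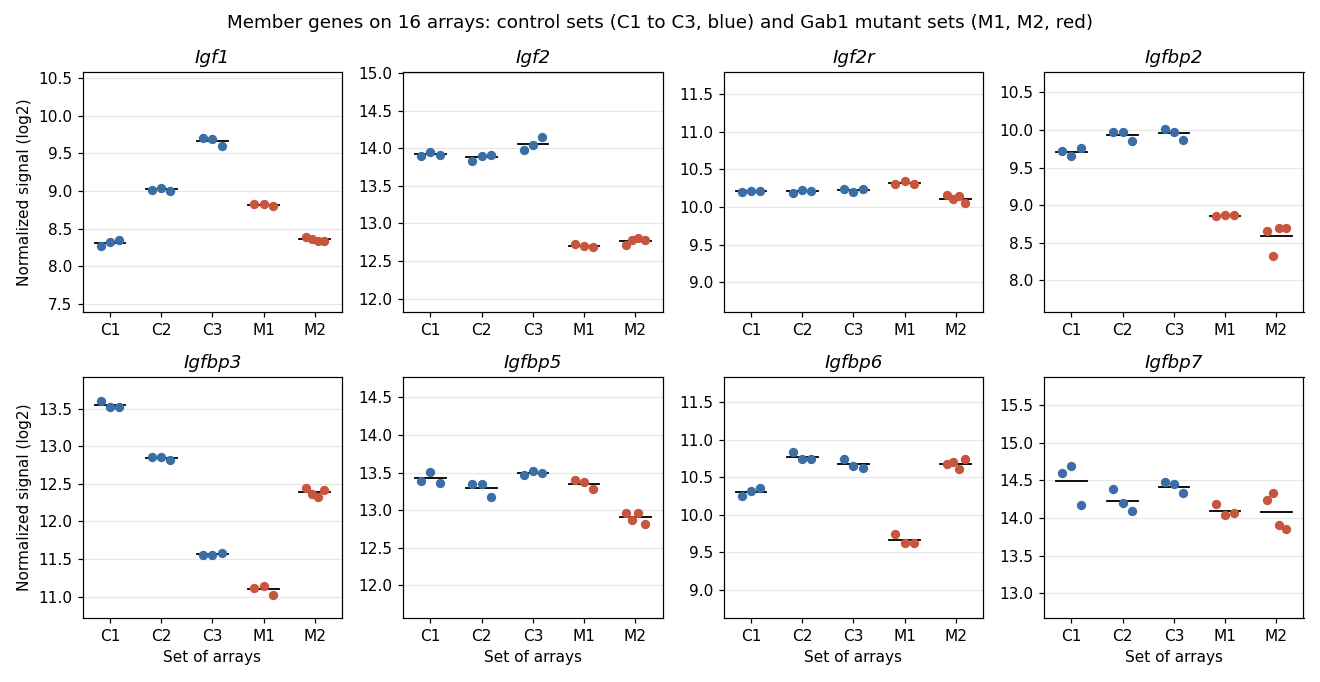
Normalized log2 signal (vertical axis, each panel spanning the same range) of the 8 genes on each of the 16 arrays, by set: control sets C1 to C3 in blue, mutant sets M1 and M2 in red. The 7 mutant arrays of Igf2 (12.69 to 12.81) and of Igfbp2 (8.33 to 8.87) lie below all 9 control arrays, whereas Igf1 and Igfbp3 spread as widely within controls as between groups.

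The receptor Igf2r did not separate the groups on either of its 2 probes. The first probe stood at 10.21, 10.21 and 10.23 in control sets 1 to 3, with an SD of 0.01, and at 10.32 and 10.11 in mutant sets 1 and 2. The control sets lay between the mutant sets, which differed from each other by more than the controls did. The difference was 0.00 with a 95% interval of -0.39 to 0.39 (adjusted p = 0.997 by limma). The second probe gave 10.00, 10.08 and 10.15 in controls against 10.40 and 9.91 in mutants, in the same order of mutant set 2 lowest and mutant set 1 highest. Its difference was 0.08 with a 95% interval of -0.43 to 0.59 (adjusted p = 0.921 by limma). Differences smaller than these intervals were not detectable with 5 sets.

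Among the binding proteins, Igfbp2 was lower in both mutant sets on both of its probes. Igfbp2 is a secreted protein that prefers IGF2 over IGF1 as its ligand. The first probe stood at 9.71, 9.93 and 9.96 in control sets 1 to 3 and at 8.86 and 8.59 in mutant sets 1 and 2. Over arrays, the lowest, median and highest were 9.65, 9.87 and 10.02 in controls and 8.33, 8.70 and 8.87 in mutants. No array overlapped between the groups, and mutant set 2 was the lowest set. The mean was 8.73 ± 0.19 (SD, n = 2) against 9.87 ± 0.14 (SD, n = 3), a difference of -1.14 with a standard error of 0.19 (95% interval -1.61 to -0.66), or 45.4% of control (adjusted p = 0.207 by limma). The second probe stood at 9.47, 9.74 and 9.95 in controls and at 8.95 and 8.38 in mutants. Its sets had the same order, again with no overlap of arrays, and its difference was -1.05 with a standard error of 0.26 (48.1% of control; adjusted p = 0.27 by limma). The exact permutation p was 0.1 for each probe, the smallest possible. The first probe differed by -1.22 on slide 1 and -1.09 on slide 2 (limma adjusted p of 0.249 and 0.238). With the slide as a block the adjusted p was 0.0163 for the first probe and 0.0363 for the second. With no background correction, as in the authors' table, the differences were smaller, at -0.95 and -0.86. Over all alternatives the second probe ran from -1.34 to -0.62.

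Igfbp3, the main carrier of IGFs in serum, had the widest spread of the 8 genes, 2.46 from the lowest to the highest set. Its level was 13.55, 12.84 and 11.56 in control sets 1 to 3 and 11.10 and 12.39 in mutant sets 1 and 2. Mutant set 1 was lowest, control set 3 came next, and mutant set 2 lay between control sets 3 and 2, with no overlap of arrays between neighbouring sets. The difference was -0.91 with a standard error of 0.67 (95% interval -2.58 to 0.76; adjusted p = 0.661 by limma). It was -0.26 without mutant set 1, -0.46 without control set 1, -1.46 without control set 3 and -1.55 without mutant set 2.

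Igfbp7 stood lower in both mutant sets, by less than the binding protein Igfbp2 did. Igfbp7 binds IGFs weakly and is a secreted protein of vessel walls and matrix. Its measured probe stood at 14.49, 14.22 and 14.42 in control sets 1 to 3 and at 14.10 and 14.08 in mutant sets 1 and 2. The sets did not overlap, but the arrays did, at 14.09 to 14.69 in controls and 13.85 to 14.33 in mutants. The difference was -0.29 with a 95% interval of -0.58 to 0.01 (81.9% of control; adjusted p = 0.42 by limma, exact permutation p = 0.2). The SD between arrays of a set was 0.18, the largest of the 8 genes, against a median of 0.11 over all tested probes. It was -0.30 on slide 1, -0.26 on slide 2 and -0.28 with the slide as a block (adjusted p = 0.691 by limma). Another Igfbp7 probe was detected on 0 of 16 arrays and was not tested.

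Igfbp5 and Igfbp6 overlapped between the groups, and in each of them 1 mutant set stood apart from the other. Igfbp5, a binding protein that attaches to extracellular matrix, stood at 13.42, 13.29 and 13.49 in control sets 1 to 3 and at 13.35 and 12.90 in mutant sets 1 and 2. Mutant set 2 was the lowest, mutant set 1 lay among the controls, and the difference was -0.28 with a 95% interval of -0.70 to 0.15 (adjusted p = 0.591 by limma). Igfbp6, which prefers IGF2 as its ligand, stood at 10.31, 10.77 and 10.67 in control sets 1 to 3 and at 9.66 and 10.68 in mutant sets 1 and 2. Here mutant set 1 was the lowest and mutant set 2 lay among the controls, and the difference was -0.41 with a 95% interval of -1.26 to 0.44 (adjusted p = 0.704 by limma). Without mutant set 1 the Igfbp6 difference was 0.10, and without mutant set 2 it was -0.92. For Igfbp5 it was -0.05 without mutant set 2 and -0.50 without mutant set 1.

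**Figure D2:**
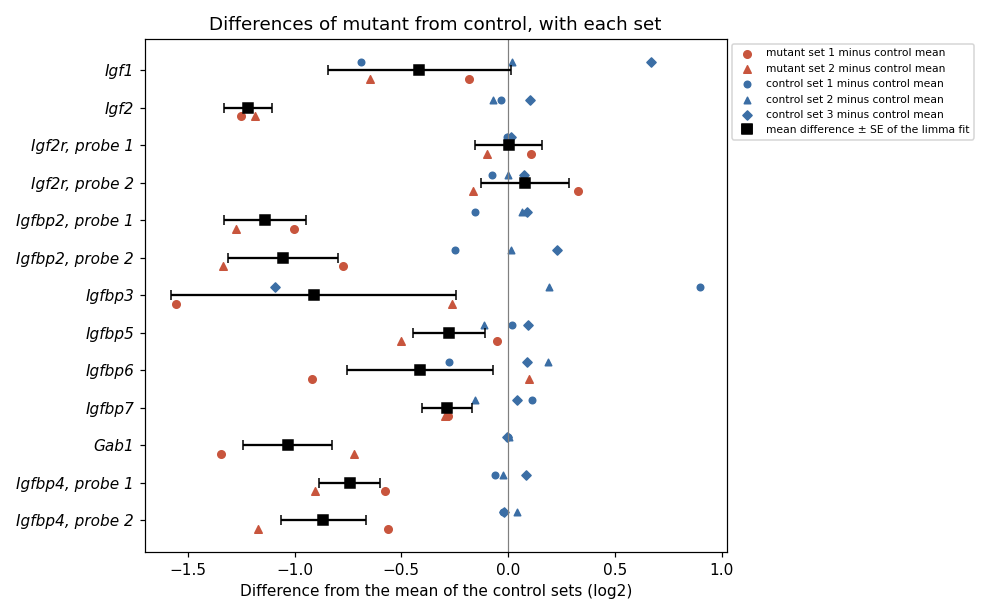
Difference of the mutant from the control sets on the log2 scale (horizontal axis) for each tested probe of the 8 genes and for Gab1 and Igfbp4, as black squares with the standard error of the limma fit, beside each mutant set (red) and control set (blue) relative to the control mean. Igf2 (-1.22) and the Igfbp2 probes (-1.14 and -1.05) have both mutant sets below all control sets, and Igf2r (0.00 and 0.08) has mutant sets on either side of the controls.

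Read together, 7 of the 8 genes had a difference below 0, with a median of -0.41, beside a median of 0.00 over the 10013 tested genes. At an adjusted p under 0.05 limma called 0 of the 10 tested probes, beside 8 of 14504 (0.0552%, with 0.0345% lower and 0.0207% higher) over the array. At an unadjusted limma p under 0.05 were 3 of the 10, the Igf2 probe and both probes of Igfbp2, beside 12.1% of all tested probes. Of the 8 genes 3 (37.5%) were lower in every mutant set than in every control set, beside 15.3% of all tested genes (2 of the 8 with 75th percentile scaling, the slide as a block or the 16 arrays entered singly), and 0 were higher in every mutant set, beside 14.1%. Of the other genes, Igf1, Igfbp3, Igfbp5 and Igfbp6 kept the sign of their difference on each slide. Both slides carry arrays of the same 5 sets, so the like sign is a repeat measurement and no independent support. The genes were chosen by name, and with 8 of them these shares are a description.

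Summed signals of some cell type marker lists also differed between the sets, with limma calling 1 sebocyte marker and 0 genes of the other lists. A sum adds linear signal over probes and can mainly follow its brightest probe. In mutant sets 1 and 2 Dcn stood at 15.12 and 14.13, beside fibroblast sums of 15.55 and 14.75. Acta2 stood at 14.53 and 13.88 there, beside mural sums of 14.91 and 14.24. Over all tested genes 15.3% were lower in both mutant sets and 14.1% higher, the shares to set beside the counts below. Endothelial markers (7 of 8 tested) summed to 14.17 to 15.26 on the log2 scale in controls and to 13.67 and 13.77 in mutants, with 5 lower in both mutant sets and a median difference of -0.90. Dermal papilla markers (9 of 10 tested) summed to 13.82 to 15.15 in controls and to 13.41 and 12.53 in mutants, with 5 lower in both mutant sets and a median of -1.32. Sebocyte markers (7 of 7 tested) summed to 14.53 to 15.38 in controls and to 12.93 and 13.19 in mutants, with 6 lower and a median of -2.04. T cell markers (6 of 6 tested) summed to 10.97 to 12.71 in controls and to 10.23 and 8.49 in mutants, with 5 lower and a median of -2.56. In contrast, basal keratinocyte markers, among them Krt5 and Krt14, summed to 17.15 to 17.26 in controls and 17.17 and 17.29 in mutants. Of these, 0 were lower in both mutant sets and 1 higher, with a median of -0.03. Dermal fibroblast markers (7 of 8 tested) summed to 15.16 to 15.30 in controls and to 15.55 and 14.75 in mutants, on either side of the controls. Among the fibroblast genes 3 were lower in both mutant sets and 1 higher, with a median of -0.34. Adipocyte markers (4 of 7 tested) summed to 12.51 to 13.14 in controls and to 12.15 and 11.57 in mutants, with 3 lower and a median of -1.03. That sum was mostly Lpl, at 12.4 to 13.0 in control sets and at 12.1 and 11.5 in mutant sets 1 and 2. The 3 lower were Lpl, Cidec and Adig, and Adipoq overlapped at -0.004. Plin1, Fabp4 and Retn were detected on 0 arrays. Mural cell markers (7 of 7 tested) summed higher in mutants, at 14.91 and 14.24 against 13.70 to 14.00 in controls, with a median difference of 0.12. Of these, 2 were higher in both mutant sets, Acta2 by 0.99 and Tagln by 1.08 (adjusted p = 0.257 and 0.259 by limma). The other 5 overlapped, at -0.03 for Myh11, 0.02 for Rgs5, 0.12 for Cspg4, -0.20 for Pdgfrb and 0.32 for Des. Of the skeletal muscle markers 3 of 8 were tested and summed to 9.16 to 9.38 in controls and to 9.01 and 8.26 in mutants. Myl1 was lower in both mutant sets (-0.93, adjusted p = 0.354 by limma), and Acta1 (-0.67) and Mylpf (-0.08) overlapped. Ckm, Myh1, Myh4, Tnnt3 and Ttn were detected on 0 arrays. The part of these cell types in the lower signal of Igf2, Igfbp2 and Igfbp7 was not tested, and in RNA of many cells fewer cells of a type and less RNA per cell cannot be told apart. With the Eif2s3y level as a covariate the difference was -1.28 for Igf2 (adjusted p = 0.108 by limma), -0.94 and -0.62 for the Igfbp2 probes (adjusted p = 0.118 and 0.27) and -0.26 for Igfbp7 (adjusted p = 0.361). As Eif2s3y was itself lower in both mutant sets than in every control set, this fit cannot separate the Y-linked level from genotype.

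**Figure D3:**
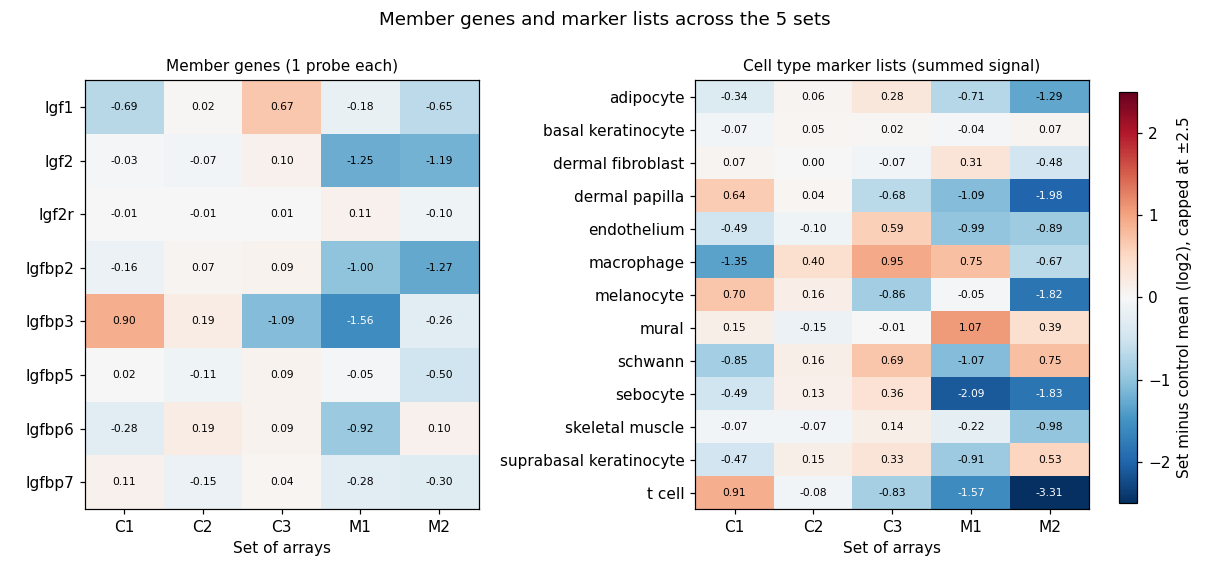
Level of each of the 8 genes (left) and summed signal of each marker list (right) in the 5 sets, relative to the mean of the control sets on the log2 scale, with the value in each cell. Igf2 (-1.25 and -1.19) and Igfbp2 (-1.27 in mutant set 2) are low in both mutant sets. So are the sebocyte (-2.09 and -1.83), endothelial (-0.99 and -0.89), T cell (-1.57 and -3.31) and dermal papilla (-1.09 and -1.98) lists. The adipocyte (-0.71 and -1.29) and skeletal muscle (-0.22 and -0.98) lists are also below every control set.

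Genes around the ligands and binding proteins were read from 6 lists of the pathway, in which limma called 0 genes in either direction. At an unadjusted limma p under 0.05 were 3 genes, beside 12.1% of all tested probes. The counts of each list stand beside 15.3% of all tested genes lower in both mutant sets and 14.1% higher. Of the receptor and adaptor list 6 of 10 genes were tested, with 2 lower in both mutant sets, 0 higher and a median of -0.28. These 2 were Shc1, an adaptor at -0.28 (adjusted p = 0.447), and Grb10, an imprinted inhibitor of IGF and insulin receptor signalling at -0.53 (adjusted p = 0.512). Without mutant set 1 Shc1 was at -0.18 and Grb10 at -0.12, and without mutant set 2 Grb10 was at -0.94. The IGF1 receptor Igf1r differed by 0.22 with a standard error of 0.27 (adjusted p = 0.807), and Insr, Insrr and Irs1 were detected on 0 arrays. The phosphoinositide 3-kinase and Akt list had 1 of 11 tested genes lower in both mutant sets and 3 higher, with a median of 0.03. Its lowest p was that of Pik3r1, the regulatory subunit p85 alpha, at -0.47 (adjusted p = 0.31), and Tsc1, an inhibitor of the mTOR complex, stood higher by 0.35 (adjusted p = 0.474), or 0.14 with no background correction and in the authors' table.

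Of the other binding proteins and their regulators 5 of 10 were tested, with 1 lower, 1 higher and a median of 0.21. Igfbp4, a binding protein that inhibits IGF action until it is cleaved, stood at 13.48, 13.52 and 13.63 in control sets 1 to 3 and at 12.97 and 12.64 in mutant sets 1 and 2. Both mutant sets were below the controls, as on its other probe, with differences of -0.74 and -0.87 (adjusted p = 0.238 and 0.261 by limma). Stc2, an inhibitor of the protease that cleaves Igfbp4, stood higher by 0.57 (adjusted p = 0.518). That difference was 0.31 with no background correction and 0.31 in the authors' table, 0.36 without control set 3 and 0.38 without mutant set 2. Igfbp1 was detected on 0 arrays.

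In the growth hormone list all 5 tested genes overlapped, with a median of -0.32. Stat5a, a transcription factor downstream of the growth hormone receptor, differed by -0.49 (adjusted p = 0.531) and the receptor Ghr by -0.46 (adjusted p = 0.646 by limma), the latter at 0.04 without mutant set 1. Of the list of Igf2 RNA-binding proteins and imprinted genes 8 of 13 were tested, with 1 lower in both mutant sets, 2 higher and a median of -0.06. Cdkn1c, an imprinted cell cycle inhibitor, was the lower one, at -0.58 (adjusted p = 0.335), and Phlda2, also imprinted, overlapped at -0.69 (adjusted p = 0.551). Without mutant set 1 Cdkn1c was at -0.36 and Phlda2 at -0.38, and Phlda2 was at -0.40 without control set 1. Of the mannose 6-phosphate sorting list, whose products depend in part on Igf2r, 10 of 12 were tested, with 3 lower, 1 higher and a median of -0.07. Gaa, the lysosomal acid alpha-glucosidase, differed by -0.33 (adjusted p = 0.511; -0.17 without mutant set 2) and Gnptab, which helps make the mannose 6-phosphate tag, by -0.28 (adjusted p = 0.589).

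**Figure D4:**
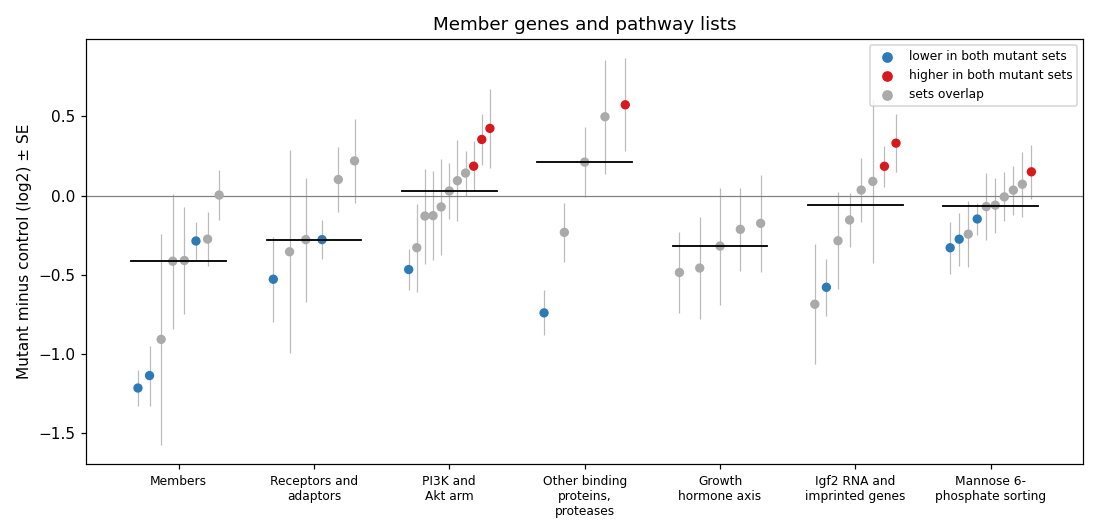
Difference of mutant from control on the log2 scale with its standard error (vertical axis) for each tested gene of the 8 IGF genes and of the 6 pathway lists. Blue marks genes lower in both mutant sets, red higher, grey overlapping, and bars mark each list's median, which runs from -0.41 for the 8 genes to 0.21 for the other binding proteins and regulators.

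For each gene the genes of most similar profile over the 5 sets were those with the smallest root mean square difference after centring, among 10012 others. Igf2, which ranged over 1.35, was nearest to Sccpdh at 0.07 and Gpr21 at 0.08. Igfbp2, with a range of 1.36, was nearest to Slc44a3 at 0.07 and Sema3g at 0.11. Igfbp7 (range 0.41) was nearest to Shf and Retreg2, both at 0.04, and Igf2r (range 0.21) to Ubac2 and B4galt3, both at 0.01. Igf1 (range 1.36) was nearest to Tm6sf1 at 0.07 and Oas2 at 0.13, and Igfbp3 (range 2.46) to Gfpt2 at 0.14 and Lama2 at 0.19. Igfbp5 (range 0.59) was nearest to Zc3h6 at 0.02 and Ap5z1 at 0.03, and Igfbp6 (range 1.11) to Unc13d at 0.06 and Ghr at 0.08. No IGF gene was among the nearest of another. Likeness over 5 values is a description.

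**Figure D5:**
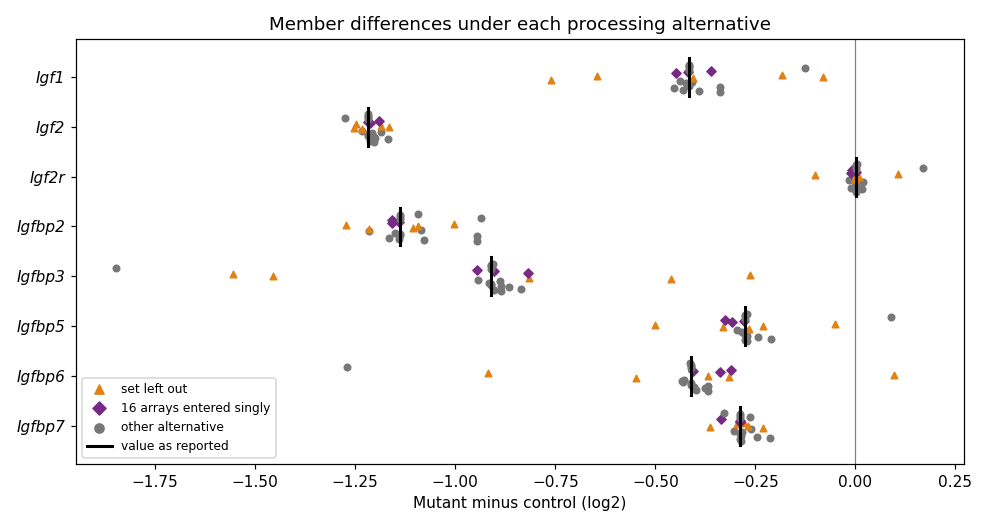
Difference of mutant from control on the log2 scale (horizontal axis) for the 8 genes under each processing alternative, with the reported value as a black bar. Igf2 stays between -1.28 and -1.17 and the first Igfbp2 probe between -1.27 and -0.94, whereas Igfbp3 runs from -1.85 to -0.26 and Igf1 from -0.76 to -0.08.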

How the data were processed

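Per the file headers, the authors deposited a raw intensity and a detection p-value per probe and array, and a table of normalized intensity. GenomeStudio is named, without a version, per the submitters' processing notes. The normalized table equals the quantile-normalized raw intensity to a median relative difference of 0.00648%. The array's genome build is not stated in the sources used here.

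Raw intensity was corrected with neqc in limma 3.58.1 (R 4.3.3, offset 16, with negative controls estimated through detection p-values), quantile normalized and put on the log2 scale. Probes with a detection p under 0.05 on at least 7 of the 16 arrays were tested, which left 14504 probes. Median raw signal was 175.9 to 223.5 per array, with 13406 to 14636 probes detected, and the number of sets limits the precision. Probe names came from the platform annotation, which gives 23978 probes 1 symbol, 0 several and 1719 none. Per gene, the tested probe of highest mean was used.

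Arrays of a labelled group were joined into sets where their correlation exceeded 0.99, and averaged. The design asked for this correlation over all probes, where control sets correlate at 0.980 to 0.992 and would join into 1, so it was taken over the tested probes instead, and the former is an alternative. The limma fit (lmFit and trended eBayes, residual df 3, prior df 2.53) compared 2 mutant with 3 control sets, with Benjamini-Hochberg adjustment over 14504 probes at 0.05. It was tested on simulated data. A two-sided exact permutation test was added per gene. Promoter windows, build GRCm38.p6, are from RefSeq.

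The genes, lists and tests were chosen with earlier results of these data known. Named were all probes of the 8 genes, Gab1, Eif2s3y, the 2 genes of smallest p in each pathway list and the 2 nearest profiles of each gene. Igf1r, the other Igfbp4 probe and Dcn were added after their values were seen. So were genes detected on 0 arrays, the mural markers named with values, and the adipocyte and skeletal muscle markers named. Of the marker lists, the melanocyte, suprabasal keratinocyte, Schwann cell and macrophage lists were not described above. Their median differences were -0.83 (5 tested), -0.24 (6), -0.24 (2) and 0.04 (4) in that order. The skeletal muscle list (3 tested) had a median of -0.67. Alternatives covered the background correction, scaling, the authors' table, the filter, the slide, the unit of replication, the Y-linked level, the variance trend, 1 probe per gene and leaving out each set.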

Additional observations from a re-analysis of the deposited data

Results flagged for a closer look

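In the first Igfbp2 probe, mutant array 4 lay apart from the other 6 mutant arrays, at 8.33 beside 8.65 to 8.87. Its gap to the nearest array was 0.602 of the range of the 7, above the critical value for that number. Chance passes that value in about 5% of groups of independent arrays. The 7 arrays form 2 sets of near-identical arrays, and the rule was run on 10 probes in each group. The other arrays of the set of mutant array 4 stood at 8.65 to 8.70. On the second probe mutant array 4 (8.24) did not stand apart, with mutant array 6 at 8.22. Leaving out mutant array 4 was a choice made after seeing the data. Without it the Igfbp2 difference was -1.09 on the first and -1.03 on the second probe, and the limma adjusted p of the first was 0.211.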

How the results depend on the processing

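Igf2 and Igfbp2 were lower in mutants under every alternative run, and no probe of the 8 genes passed the limma threshold in any fit whose units were the sets. Such probes numbered 3 with the slide as a block, 5 with the 16 arrays as separate samples, 3 with the set as a random block over the 16 arrays and 5 with the title number as a replicate block; all 4 fits enter more units than the 5 sets. Over the array, 8 calls became 0 with no background correction, offset 50, 75th percentile scaling, the authors' table, detection on all 16 arrays, slide 1 or slide 2 alone, each set left out (0 to 0), the Y-linked covariate, 1 probe per gene and sets joined over all probes, 1 with cyclic loess (higher in mutants, against 3 higher and 5 lower of the 8), 4 with no filter, 331 with the slide as a block, 883 with the random block, 3395 with the replicate block and 4914 with separate arrays. The title numbers do not pair the arrays (correlations of same-numbered deviations -0.386 to 0.418, 3 of 7 above 0.1). The replicate block also gave Igf2 -1.19 (adjusted p = 4.75e-06). Over all alternatives the limma adjusted p of Igf2 ran from 7.77e-12 with separate arrays to 1 with sets joined over all probes, and that of the first Igfbp2 probe from 6.78e-08 to 1. Leaving out sets gave 4 to 5 genes lower in every mutant set and 0 to 1 higher, and a median of -0.60 to -0.32. Sets joined over all probes, an alternative added after seeing the data, gave 6 lower. With 75th percentile scaling, the slide as a block, separate arrays, the random block or the replicate block 2 were lower. Fewer sets let more genes separate by construction, and more units let fewer. The share over all tested genes was not computed for these settings, so the counts cannot be read as stronger or weaker results. The median was -0.60 with the Y-linked covariate. Signs turned for the first Igf2r probe with cyclic loess (-0.0098), slide 2 (-0.017), separate arrays (-0.012), the replicate block (-0.00889) and sets left out (-0.1002 to 0.106), for the second (-0.167 to 0.327), Igfbp6 (-0.919 to 0.0977) and Ghr (-0.954 to 0.0369) with sets left out, and for Igfbp5 with the Y-linked covariate (0.0898); the cause was not tested. With 2 mutant sets, even the differences of Igf2 (-1.22) and the first Igfbp2 probe (-1.14) did not pass the adjusted threshold. Differences of such a size or smaller can therefore go uncalled.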
